A study of Mus musculus with 8 samples.

Results

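The liver makes nearly all of the clotting proteins that circulate in plasma, and the messenger RNAs (mRNAs) of 10 of them were read in the livers of mice with chemically induced liver cancer. The set holds the genes of 7 clotting factors (F2, F5, F7, F9, F10, F11 and F12) and of the 3 fibrinogen chains (Fga, Fgb and Fgg). The members were chosen by gene symbol, with no use of measured values, and the 10 were found among the 17164 genes of the table. Each of the 10 passed the filter on low values, which kept 11606 genes. Their Entrez gene IDs are 14061 (F2), 14067 (F5), 14068 (F7), 14071 (F9), 14058 (F10), 109821 (F11), 58992 (F12), 14161 (Fga), 110135 (Fgb) and 99571 (Fgg).

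Male C57BL/6 mice were studied in 4 groups of 6, and 2 livers drawn at random from each group were sequenced, so that n = 2 libraries per group throughout. DEN+CCl4 mice received diethylnitrosamine (DEN, 0.67%, a liver carcinogen) by intraperitoneal injection when 2 weeks old. From 8 weeks they also received carbon tetrachloride (CCl4, a hepatocyte toxin, as a 20% solution in olive oil). DWYG-M and DWYG-H mice received both agents and, from 17 weeks, Diwu Yanggan (DWYG, a herbal capsule) at 1 and 2 multiples, in that order, of the dose equivalent to clinical use. Control mice had saline in place of DEN; whether they had olive oil in place of CCl4 is not stated. Livers were taken at 22 weeks, and whether they were sampled in tumour or in tissue beside it is not given. Hepatocyte mRNA was present in each group. The gene of albumin, the main hepatocyte plasma protein, took between 5.19% and 10.5% of all counts per library. None of the 15 measured hepatocyte markers was at 0 in both libraries of any group. These values do not measure the share of hepatocytes in the tissue. Total counts were between 17345627 and 19191382 per library, and between 10101 and 11556 genes reached an FPKM of 1.

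Clotting ends with thrombin, the active form of prothrombin (F2), cutting fibrinogen into fibrin. Factor X (F10) activates prothrombin with factor V (F5) as its cofactor. Factor VII (F7) starts the tissue factor route to factor X, while factors XII, XI and IX (F12, F11 and F9) lead to it by contact activation. Prothrombin and factors VII, IX and X need vitamin K for their carboxylation, and fibrinogen is also an acute phase protein, raised in liver by interleukin 6 (IL-6).

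The promoters of the 3 fibrinogen chain genes are shown because the chains are made as one complex and their mRNA levels moved together from library to library, as described further on. The sequences are from RefSeq on build GRCm38.p6, which is not the build (GRCm39) of the deposited values, and each runs from 250 bases before to 50 bases after the annotated transcript start. Fga is at chr3:83025903-83026202 on the plus strand, Fgb at chr3:83049814-83050113 on the minus strand and Fgg at chr3:83007474-83007773 on the plus strand. Capitals mark matches on either strand to the core of an IL-6 response element (CTGGGA), a STAT3 site (TTCNNNGAA) and a C/EBP site (TTGCNNAA). None of these matches overlaps another in the 3 windows.
Fga: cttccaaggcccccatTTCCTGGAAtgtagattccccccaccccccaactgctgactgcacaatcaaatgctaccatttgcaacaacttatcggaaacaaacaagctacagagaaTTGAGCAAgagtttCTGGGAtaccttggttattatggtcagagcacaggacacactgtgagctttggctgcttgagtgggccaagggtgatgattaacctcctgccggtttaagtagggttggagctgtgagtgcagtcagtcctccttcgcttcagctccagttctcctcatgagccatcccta
Fgb: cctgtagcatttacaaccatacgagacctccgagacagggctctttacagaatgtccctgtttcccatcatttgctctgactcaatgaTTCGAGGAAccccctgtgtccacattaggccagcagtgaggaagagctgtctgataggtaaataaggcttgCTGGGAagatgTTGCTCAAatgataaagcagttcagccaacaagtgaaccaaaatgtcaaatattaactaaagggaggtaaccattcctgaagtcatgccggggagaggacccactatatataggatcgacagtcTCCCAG
Fgg: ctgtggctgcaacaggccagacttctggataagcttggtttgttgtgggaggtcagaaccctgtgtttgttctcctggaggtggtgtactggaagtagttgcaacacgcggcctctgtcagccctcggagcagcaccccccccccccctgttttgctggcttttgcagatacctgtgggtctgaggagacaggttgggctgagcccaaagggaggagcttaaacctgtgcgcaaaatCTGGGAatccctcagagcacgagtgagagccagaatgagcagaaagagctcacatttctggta

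The Fga and Fgb windows each hold the 3 kinds of match. Counted from the transcript start, the STAT3 match lies at −234 in Fga and −162 in Fgb, the CTGGGA core at −121 in Fga and −91 in Fgb (with another at 45, past the start), and the C/EBP match at −135 in Fga and −80 in Fgb. The Fgg window holds a CTGGGA core at −13 and no match to the others. Over 32851 mouse promoter windows of the same length, 31.8% hold CTGGGA, 8.30% TTCNNNGAA and 10.8% TTGCNNAA. Among the 10 members 6, 3 and 4 windows hold them in that order, and in F9 the STAT3 match overlaps the CTGGGA core. A TATAAA box, searched on the gene's strand, is in 8.32% of all windows and in 0 of the 10. These are matches of letters and were not tested as binding sites.

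In DEN+CCl4 compared with control livers, the mRNA of none of the 10 genes passed the test. The levels of fibrinogen chains, prothrombin and the other factors differed by between −0.23 (F9) and 0.58 (F11) on the log2 scale, with a median of 0.019 over the 10 and −0.013 over all genes tested. By edgeR's quasi-likelihood test on TMM-scaled counts, with Benjamini-Hochberg adjustment over all 11606 genes (adjusted p under 0.05 is a call), 0 of 10 were called, against 22.2% of all genes tested (2582 genes). None of the 10 had an unadjusted p under 0.05, against 35.9% of all genes. DESeq2 also called 0 of 10, against 16.1% of all genes called higher and 8.36% called lower. The edgeR count of 2582 genes was 1099 and 812 without control replicates 1 and 2, and 1468 without DEN+CCl4 replicate 2, with 0 members called in each case. The median fold change of the 10 was 0.21 without DEN+CCl4 replicate 1, −0.11 without DEN+CCl4 replicate 2, 0.049 and −0.036 without control replicates 1 and 2, and −0.0012 without DWYG-H replicate 1. These are mRNA values of whole liver, in which fewer hepatocytes and less RNA per hepatocyte cannot be told apart.

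**Figure D1:**
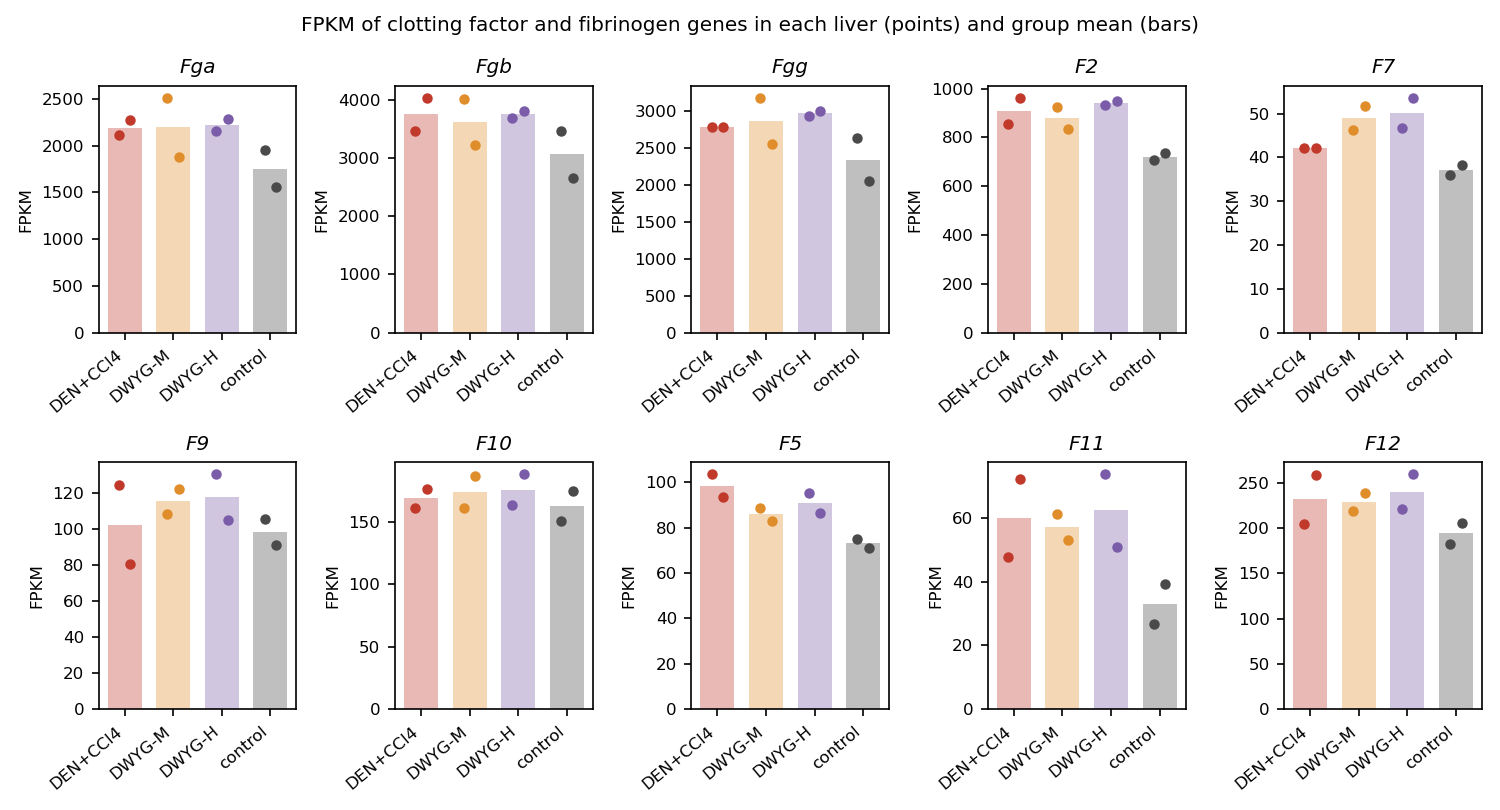
FPKM of each gene (y axis, from 0) in DEN+CCl4, DWYG-M, DWYG-H and control livers; points are single livers and bars are means of 2. F11 shows the widest spread, with both control livers under 40 FPKM and the other 6 between 47.8 and 73.8.

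Levels given here are FPKM, reads scaled to gene length and to all reads of a library. The alpha chain gene Fga had 2111 and 2274 FPKM in DEN+CCl4, 2511 and 1876 in DWYG-M, 2156 and 2288 in DWYG-H, against 1947 and 1558 in control. The beta chain gene Fgb had 3465 and 4032 FPKM in DEN+CCl4, 4011 and 3225 in DWYG-M, 3692 and 3809 in DWYG-H, against 3455 and 2661 in control. The gamma chain gene Fgg had 2785 and 2774 FPKM in DEN+CCl4, 3176 and 2548 in DWYG-M, 2929 and 2998 in DWYG-H, against 2634 and 2044 in control. In FPKM both DEN+CCl4 livers lay above both controls for the 3 chains, for Fgb by a narrow margin. After TMM scaling DEN+CCl4 and control overlapped for each chain. The log2 fold changes for DEN+CCl4 over control were 0.066 for Fga (SE 0.27, adjusted p = 0.890) and 0.042 for Fgb (SE 0.27, adjusted p = 0.931). Fgg gave −0.013 (SE 0.25, adjusted p = 0.979), which was 0.26 on FPKM and 0.59 on TPM values. The 95% intervals of the fold change ran from 0.681 to 1.61 for Fga, 0.667 to 1.59 for Fgb and 0.668 to 1.47 for Fgg.

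Prothrombin had the highest FPKM and TPM of the 7 factors, and factor V had the narrowest range of the 10 genes over the 8 libraries in TMM-scaled CPM, though not in FPKM or TPM. F2, the thrombin precursor, had 857 and 963 FPKM in DEN+CCl4, 923 and 835 in DWYG-M, 932 and 952 in DWYG-H, against 706 and 735 in control. The 6 livers that had DEN and CCl4 were above both controls in FPKM, and the groups of DEN+CCl4 and control overlapped after TMM scaling. The log2 fold change was 0.073 (SE 0.22, adjusted p = 0.847), with a 95% interval of 0.740 to 1.50 in fold. F5, the cofactor that speeds thrombin formation, had 104 and 93.4 FPKM in DEN+CCl4, 88.6 and 83.0 in DWYG-M, 95.5 and 86.5 in DWYG-H, against 75.1 and 71.2 in control. Its DEN+CCl4 libraries did not overlap control on either scale (after TMM scaling, 645 and 665 CPM against 578 and 598 CPM), and its log2 fold change of 0.16 (SE 0.18, adjusted p = 0.571) did not pass.

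The other vitamin K-dependent factors had negative fold changes after TMM scaling that did not pass and that turned positive on FPKM and TPM values. F7, the protease that tissue factor binds, had 42.1 FPKM in both DEN+CCl4 livers, 46.2 and 51.7 in DWYG-M, 46.7 and 53.6 in DWYG-H, against 36.0 and 38.4 in control. The log2 fold change of F7 in DEN+CCl4 over control was −0.089 (SE 0.16, adjusted p = 0.732), or 0.18 on FPKM and 0.50 on TPM values. F9, the protease missing in haemophilia B, had 124 and 80.7 FPKM in DEN+CCl4, 108 and 122 in DWYG-M, 130 and 105 in DWYG-H, against 105 and 91.1 in control. In FPKM the controls lay between the DEN+CCl4 livers, whereas after TMM scaling both DEN+CCl4 libraries (247 and 190 CPM) were below both controls (262 and 251 CPM). The log2 fold change of F9 was −0.23 (SE 0.20, adjusted p = 0.456), or 0.032 on FPKM and 0.35 on TPM values. F10, which cuts prothrombin, had 161 and 177 FPKM in DEN+CCl4, 162 and 187 in DWYG-M, 164 and 189 in DWYG-H, against 151 and 175 in control. These ranges overlapped in each pair of groups, and its log2 fold change was −0.21 (SE 0.21, adjusted p = 0.514), or 0.055 on FPKM and 0.38 on TPM values.

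Of the contact factors, F11 had the widest range of the 10 genes over the 8 libraries. F11, which activates factor IX, had 47.8 and 72.2 FPKM in DEN+CCl4, 61.2 and 53.2 in DWYG-M, 73.8 and 51.1 in DWYG-H, against 26.8 and 39.4 in control. Each of the 6 livers that had DEN and CCl4 was above both controls in FPKM; after TMM scaling DEN+CCl4 replicate 1 (83.1 CPM) lay between the controls (58.7 and 93.5 CPM). The log2 fold change of F11 in DEN+CCl4 over control was 0.58 (SE 0.33, adjusted p = 0.242), with a 95% interval of 0.889 to 2.52 in fold. It was 0.13 without DEN+CCl4 replicate 2 and 0.95 without DEN+CCl4 replicate 1, and it did not pass in either case. F12, which starts contact activation, had 205 and 259 FPKM in DEN+CCl4, 219 and 239 in DWYG-M, 221 and 259 in DWYG-H, against 183 and 205 in control. Its log2 fold change was −0.00402 (SE 0.23, adjusted p = 0.993), or 0.25 on FPKM and 0.57 on TPM values.

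**Figure D2:**
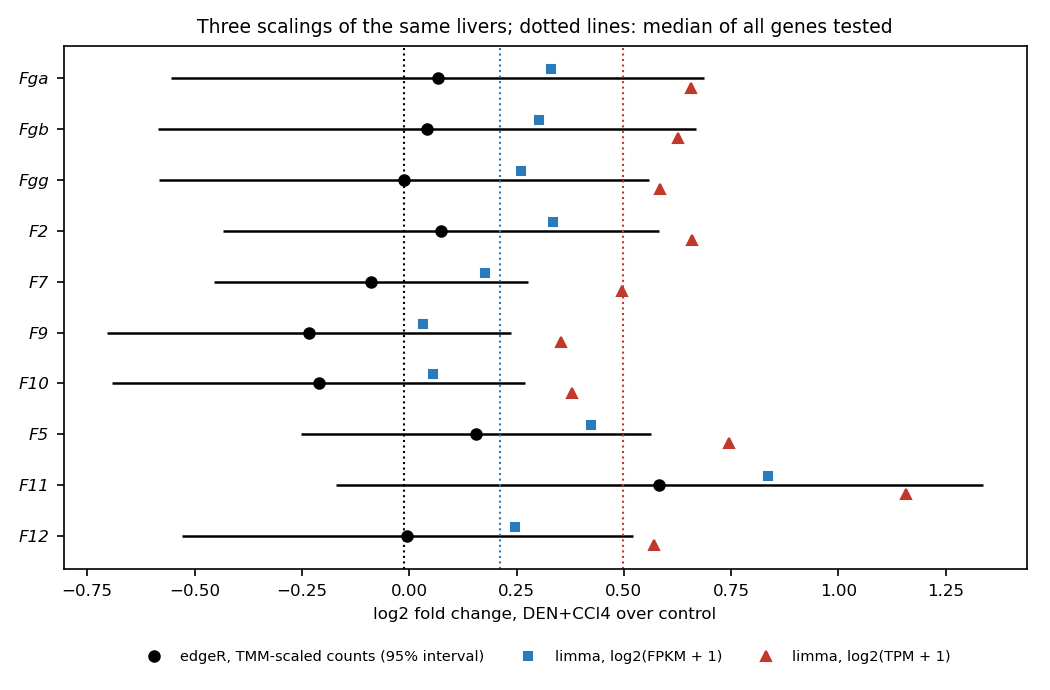
Log2 fold change of each gene in DEN+CCl4 over control (x axis) from edgeR on TMM-scaled counts (black, bar is the 95% interval), limma on log2(FPKM + 1) (blue) and limma on log2(TPM + 1) (red); dotted lines are the medians of all genes tested under each. The points of the 10 genes shift to the right together with the dotted lines, from −0.013 on TMM-scaled counts to 0.21 on FPKM and 0.50 on TPM.

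Whether members were called depended on the scale of the values in DEN+CCl4 compared with control. TPM, which scales each library to a fixed sum, placed the median of all genes tested at 0.50 on the log2 scale, and FPKM placed it at 0.21. Genes of the major urinary proteins, short secreted proteins of male liver, took 1.76% and 0.563% of counts in DEN+CCl4, 2.09% and 3.50% in DWYG-M, 2.06% and 2.30% in DWYG-H, against 15.3% and 15.45% in control, and the part of this in the shift was not tested. With limma on log2(TPM + 1), 6 of 10 members were called, all higher (F2, F5, F7, F11, F12 and Fga), against 45.8% of all genes tested called higher. The median of the 10 was 0.61 on that scale, where 7 of the 10 lay above the median of all genes, as did 7 of the 10 on TMM-scaled counts. With limma on log2(FPKM + 1), 0 of 10 were called, against 21.3% of all genes called higher, 2 of the 10 had an unadjusted p under 0.05, and the median of the 10 was 0.28. Both DEN+CCl4 livers exceeded both controls for 7 of 10 members in FPKM (47.1% of all genes tested), 9 of 10 in TPM (68.8%) and 1 of 10, F5, in TMM-scaled CPM (30.3%). F9 was the 1 of 10 lower without overlap in TMM-scaled CPM (29.2%).

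DWYG-M livers were compared with DEN+CCl4 livers to ask what the medium dose changed in the model. No member was called by edgeR (0 of 10, against 0.00862% of all genes, which is 1 gene), and 0 of 10 had an unadjusted p under 0.05 (12.6% of all genes). DESeq2 also called 0 of 10, with 0.62% of all genes called higher and 1.15% lower. Log2 fold changes of DWYG-M over DEN+CCl4 ran from −0.14 to 0.27, with a median of 0.036 over the 10 and −0.021 over all genes tested. The median of the 10 was −0.12 and 0.21 without DEN+CCl4 replicates 1 and 2, −0.074 and 0.10 without DWYG-M replicates 1 and 2, and −0.013 on FPKM and −0.086 on TPM values. F7 was higher in both DWYG-M libraries (68.7 and 77.3 CPM after TMM scaling) than in both DEN+CCl4 libraries (56.5 and 64.8 CPM), with a log2 fold change of 0.27 (SE 0.16, edgeR adjusted p = 0.532). F9 gave 0.25 (SE 0.20, edgeR adjusted p = 0.673) and F5 gave −0.14 (SE 0.18, edgeR adjusted p = 0.808). F7 was 1 of 10 members higher without overlap, against 20.4% of all genes, and F5 was 1 of 10 lower without overlap, against 20.2%.

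DWYG-H livers were compared with DEN+CCl4 livers in the same way. Again 0 of 10 members were called by edgeR (0 of 11606 genes, 0%, with 8.49% at an unadjusted p under 0.05), and 0 of 10 had an unadjusted p under 0.05. DESeq2 also called 0 of 10, with 0.327% of all genes called higher and 0.707% lower. Log2 fold changes of DWYG-H over DEN+CCl4 ran from −0.052 to 0.31, with a median of 0.10 over the 10 and −0.011 over all genes tested. The median of the 10 was −0.077 and 0.28 without DEN+CCl4 replicates 1 and 2. F7 had 70.5 and 79.3 CPM after TMM scaling in DWYG-H, against 56.5 and 64.8 CPM in DEN+CCl4, with a log2 fold change of 0.31 (SE 0.16, edgeR adjusted p = 0.645). Its 95% interval ran from 0.960 to 1.59 in fold. F9 gave 0.28 (SE 0.20, edgeR adjusted p = 0.781) and Fgg gave 0.15 (SE 0.25, edgeR adjusted p = 0.931). F7 and Fgg were the 2 of 10 members higher without overlap, against 17.2% of all genes. Both dose comparisons share the DEN+CCl4 libraries.

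Between the doses, DWYG-H over DWYG-M, the fold changes of the 10 genes ran from 0.017 to 0.13 on the log2 scale, with a median of 0.056 over the 10 and −0.0017 over all genes tested. The median of the 10 was 0.15 without DWYG-M replicate 1. By edgeR 0 of 10 were called (0% of all genes, with 1.66% at an unadjusted p under 0.05), and DESeq2 also called 0 of 10 (0.0172% of all genes higher, 0.0258% lower). F2 was the 1 of 10 higher without overlap, against 13.2% of all genes. F5 gave 0.084 (SE 0.18), F2 gave 0.10 (SE 0.22) and F11 gave 0.13 (SE 0.32), each with an edgeR adjusted p of 1. The 95% intervals of the 10 genes lay within −0.62 and 0.88.

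Livers under DWYG were also set against control, which shows what differed from mice without DEN, CCl4 and DWYG. In DWYG-M compared with control, 0 of 10 members were called by edgeR, against 4.95% of all genes tested (575 genes, or 52 and 39 without control replicates 1 and 2). DESeq2 called 0 of 10, against 7.28% of all genes higher and 1.4% lower. The log2 fold changes ran from −0.12 to 0.56 with a median of 0.052 (−0.0071 over all genes), which was −0.011 and 0.12 without DWYG-M replicates 1 and 2 and 0.025 without control replicate 2. F11 gave 0.56 (SE 0.33, edgeR adjusted p = 0.409), with 120 and 105 CPM in DWYG-M, against 58.7 and 93.5 CPM in control after TMM scaling; it was the 1 of 10 higher without overlap (28.9% of all genes). F7 gave 0.18 (SE 0.16, edgeR adjusted p = 0.587), and F10 gave −0.12 (SE 0.21, edgeR adjusted p = 0.801), or 0.096 on FPKM and 0.35 on TPM values.

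In DWYG-H compared with control, 0 of 10 members were called by edgeR, against 7.69% of all genes tested (892 genes, or 151 and 77 without control replicates 1 and 2). DESeq2 called 0 of 10, against 9.43% of all genes higher and 2.51% lower. The log2 fold changes ran from −0.10 to 0.69 with a median of 0.12 (−0.013 over all genes), which was 0.074 without control replicate 2. F11 gave 0.69 (SE 0.33, edgeR adjusted p = 0.248), with 145.5 and 100.1 CPM in DWYG-H, against 58.7 and 93.5 CPM in control, and a 95% interval of 0.957 to 2.72 in fold. F7 gave 0.22 (SE 0.16, edgeR adjusted p = 0.457) and F2 gave 0.17 (SE 0.22, edgeR adjusted p = 0.691). F2, F7, F11, Fga and Fgg, 5 of 10, were higher without overlap, against 29.6% of all genes. In both of these comparisons 0 of 10 had an unadjusted p under 0.05 by edgeR, against 19.2% of all genes for DWYG-M and 23.8% for DWYG-H. Both share the control libraries. On TPM values limma called 4 members higher in DWYG-M (F2, F5, F7 and F11) and 5 in DWYG-H (F2, F5, F7, F11 and F12), against 23.8% and 28.4% of all genes; the median of all genes was shifted by 0.40 and 0.41.

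The order of the 10 genes by level, read in TPM, which allows genes to be compared per length, was nearly the same in each group. Fgb was highest, at 5397 ± 528 TPM in DEN+CCl4, 4960 ± 858 in DWYG-M and 5213 ± 102 in DWYG-H, against 3522 ± 704 in control (SD, n = 2). Fgg, Fga, F2, F12, F10, F9 and F5 followed in this order in each of the 4 groups. F7 and F11 were lowest, with F11 above F7 in DEN+CCl4, DWYG-M and DWYG-H (86.3 and 60.7 TPM in DEN+CCl4) and below it in control (37.95 for F11 and 42.7 for F7). The libraries of F7 and F11 overlapped in control and in DWYG-H. Neighbours that also overlapped were F9 and F5 in DEN+CCl4, Fgb and Fgg in control and DWYG-M, and Fgg and Fga in DWYG-M.

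The fibrinogen chains kept close proportions while their sum varied. Fga made up 25.2% and 25.1% of the summed chain TPM in DEN+CCl4, 25.9% and 24.5% in DWYG-M, 24.6% and 25.2% in DWYG-H, against 24.2% and 24.9% in control. Fgb was the largest share in each library, between 41.4% and 44.4%, and Fgg held between 30.6% and 33.4%. The summed TPM of the chains was 12120 and 12990 in DEN+CCl4, 13460 and 10320 in DWYG-M, 12220 and 12620 in DWYG-H, against 9350 and 7119 in control. Of all counts, which are not scaled to length, the 3 genes took 1.39% and 1.51% in DEN+CCl4, 1.61% and 1.26% in DWYG-M, 1.45% and 1.51% in DWYG-H, against 1.32% and 1.04% in control. Neither measure is TMM-scaled, and on log2(TPM + 1) the median of all genes was itself 0.50 higher in DEN+CCl4 than in control. After TMM scaling the chains differed by between −0.013 (Fgg) and 0.066 (Fga) on the log2 scale in DEN+CCl4 over control, and none was called by edgeR.

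**Figure D3:**
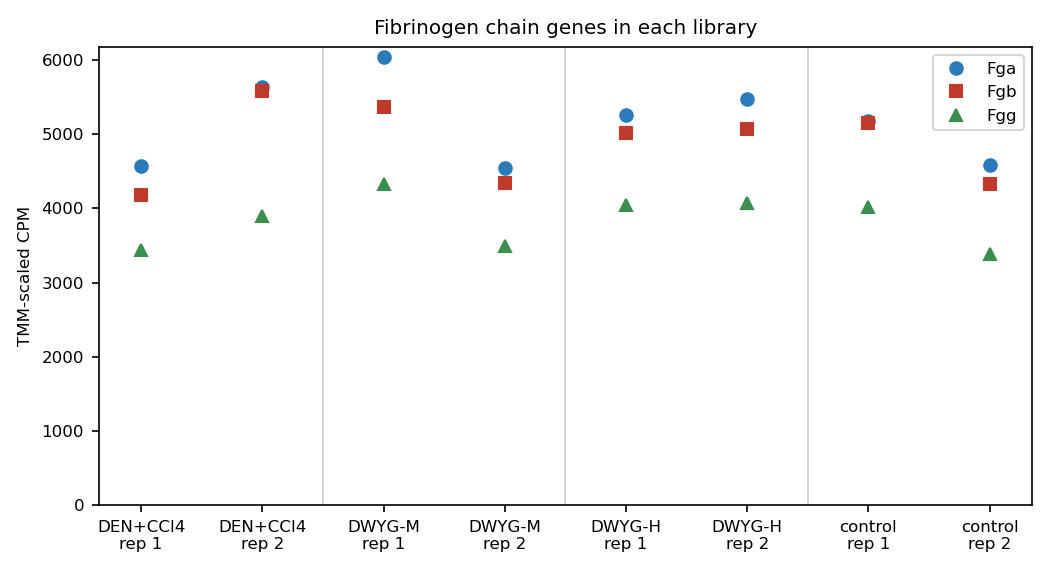
TMM-scaled CPM (y axis, from 0, not scaled to gene length) of Fga, Fgb and Fgg in each library of DEN+CCl4, DWYG-M, DWYG-H and control. Each chain is higher in DWYG-M replicate 1 than in DWYG-M replicate 2 (4330 and 3487 CPM for Fgg).

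Across the 8 libraries, on log2 TMM-scaled CPM, the chains correlated at r = 0.94 (Fga with Fgb), 0.93 (Fga with Fgg) and 0.88 (Fgb with Fgg). These values describe 8 libraries of 4 groups that share a scaling factor per library, and they carry no test. Among the other pairs of members, F2 with F11 and F10 with F12 were the closest (r = 0.83 each), and F9 with Fgb was the most opposed (r = −0.46). The range over the 8 libraries was 1.31 on the log2 scale for F11 and between 0.22 (F5) and 0.64 (F9) for the other 9, with a median of 0.45 over the 10 and 0.77 over all genes tested. Replicates of F11 differed by 0.80 in DEN+CCl4, 0.19 in DWYG-M and 0.54 in DWYG-H, against 0.67 in control. Of genes outside the set, Bcl7c (r = 0.94), Gtf2h3 (0.93), Poglut1 (0.92), Cxcl13 (0.90) and Rom1 (0.89) had the profiles closest to the mean of the fibrinogen chains. Closest to F11 were Arsg (r = 0.98), Cntnap1, Klhl25, Serpina12 (0.96 to 0.97 for these 3) and Uaca (0.96). Many genes were about as close, as 62 genes, F11 itself included, had r over 0.9 with F11. Predicted genes were not named for either profile.

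Relative to other hepatocyte mRNAs, the summed level of the members in each group overlapped with control. This sum is mostly that of the fibrinogen chains and says little of the 7 factors. In DEN+CCl4 the chains summed to 12120 and 12990 TPM, and F2, the highest factor, had 1242 and 1378. The summed TPM of the 10 genes divided by that of 15 hepatocyte markers was 0.106 and 0.0739 in DEN+CCl4, 0.0876 and 0.0897 in DWYG-M, 0.0832 and 0.0942 in DWYG-H, against 0.0992 and 0.0840 in control. Both controls lay between the DEN+CCl4 livers. Without albumin in the marker sum the ratio was 0.185 and 0.126 in DEN+CCl4, 0.151 and 0.138 in DWYG-M, 0.1475 and 0.154 in DWYG-H, against 0.169 and 0.125 in control, and the groups again overlapped with control. Of the 15 hepatocyte markers, 0 rose and 1 (Apoa2) fell in DEN+CCl4 compared with control (median −0.015). Their summed TPM was 135100 to 208500 in DEN+CCl4, 138700 to 179100 in DWYG-M and 159000 to 174600 in DWYG-H, against 103100 to 109300 in control. Summed TPM values here include the shift of that scale. The median of all genes was higher than in control by 0.50 in DEN+CCl4, 0.40 in DWYG-M and 0.41 in DWYG-H on log2(TPM + 1). Markers of other cells were counted in DEN+CCl4 compared with control, where 15.1% of all genes tested rose and 7.12% fell by edgeR. Cholangiocyte markers rose for 7 of 8 tested (summed TPM 519 to 750 in DEN+CCl4, against 69.8 to 74.6 in control). Stellate and myofibroblast markers rose for 8 of 10 (285 to 365 in DEN+CCl4, against 30.6 to 37.0 in control). Both summed levels in the DWYG livers lay between those of the other groups, at 299 to 370 TPM in DWYG-M and 388 to 451 in DWYG-H for cholangiocyte markers and 139 to 146 TPM in DWYG-M and 146 to 159 in DWYG-H for stellate markers. Of 10 macrophage markers 4 rose and 1 fell (658 to 1068 TPM in DEN+CCl4, 514 to 531 in DWYG-M and 748 to 777 in DWYG-H, against 288 to 402 in control). Of 10 endothelial markers 1 rose (175 to 231.5 TPM in DEN+CCl4, 209 to 218 in DWYG-M and 173 to 210.4 in DWYG-H, against 121 to 139 in control). Of 6 tested neutrophil markers 4 rose (83.6 to 299 TPM in DEN+CCl4, 127 to 346 in DWYG-M and 150 to 151 in DWYG-H, against 9.95 to 15.2 in control), and 3 of the 10 listed were at 0 in control. Of 3 tested platelet markers 1 rose (22.0 to 34.7 TPM in DEN+CCl4, 21.5 to 25.7 in DWYG-M and 18.4 to 29.1 in DWYG-H, against 10.03 to 14.5 in control), as did 1 of 3 tested lymphocyte markers (33.8 to 40.8 TPM in DEN+CCl4, 26.9 to 30.4 in DWYG-M and 36.4 to 71.6 in DWYG-H, against 5.95 to 14.04 in control). Their part in the members' values was not tested.

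**Figure D4:**
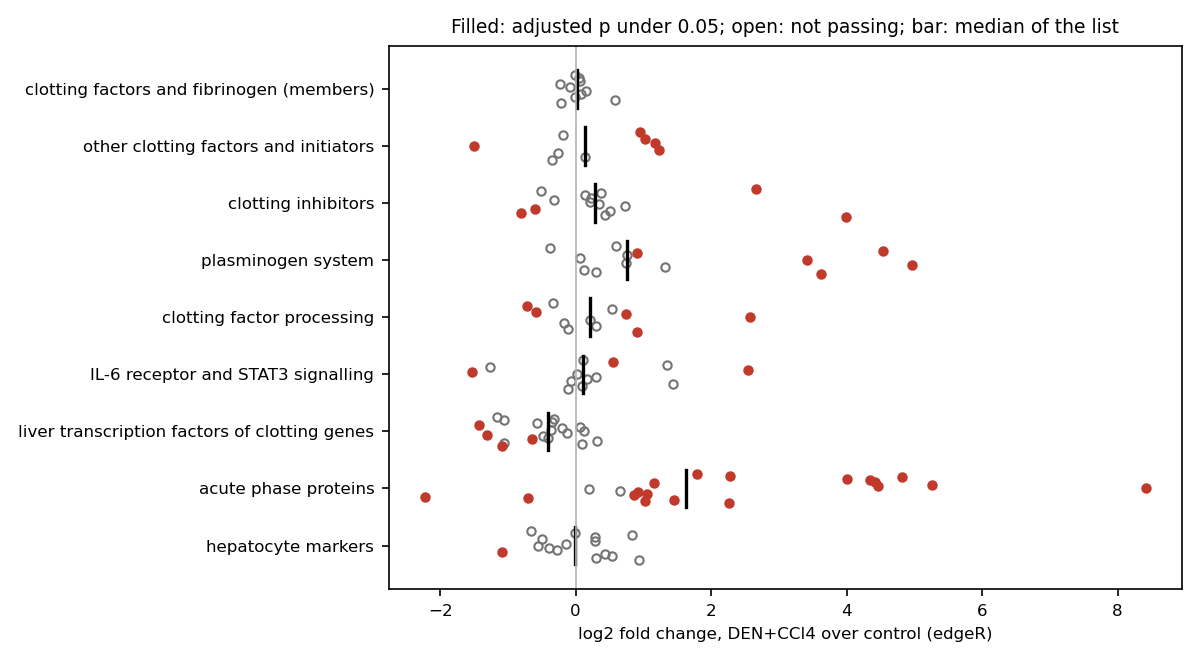
Log2 fold change in DEN+CCl4 over control (x axis, edgeR) of each tested gene in the 10 members, 7 related lists and the hepatocyte markers; filled red points passed, open points did not, and bars are list medians. The members and hepatocyte markers have medians of 0.019 and −0.015, and the acute phase proteins 1.62.

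Genes that act with the members were read in DEN+CCl4 compared with control, where 15.1% of all genes tested rose and 7.12% fell by edgeR. Of 9 other clotting factors and initiators, 4 rose and 1 fell, with a median of 0.14. Klkb1, the prekallikrein gene of contact activation, fell by 1.50 on the log2 scale (SE 0.26, edgeR adjusted p = 0.00678), to 32.2 ± 13.7 FPKM in DEN+CCl4, against 74.2 ± 4.70 in control, and the call held under each of the 18 alternatives. Fgl1, a fibrinogen-like hepatocyte protein, rose by 1.24 (SE 0.26), the kininogen gene Kng2 by 1.02 (SE 0.26) and Vwf, the von Willebrand factor gene of endothelium, by 0.95 (SE 0.25). Leaving out control replicate 1 or 2 lost each of these 3 calls (highest adjusted p 0.108, 0.137 and 0.140), those of Kng2 and Vwf also without DEN+CCl4 replicate 2 and with only the 2 groups compared, and that of Vwf without DWYG-H replicate 1. Kng2 shares close sequence with Kng1, so its count is uncertain. The list count of 5 was 1 without either control library, 2 without DEN+CCl4 replicate 2 and 3 without DWYG-H replicate 1. F8, the factor VIII gene, which is made in endothelium, gave −0.27 (adjusted p = 0.674).

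Of 14 clotting inhibitors, 2 rose and 2 fell, with a median of 0.29. Thbd, thrombomodulin, rose by 2.66 (SE 0.55, edgeR adjusted p = 0.0136), to 7.525 ± 6.02 FPKM in DEN+CCl4, against 0.96 ± 0.297 in control. Leaving out control replicate 1 or 2 lost this call (highest adjusted p 0.0982). A2m, a broad protease trap, had 0.43 and 1.07 FPKM in DEN+CCl4, against 0.04 in both controls, and passed with an edgeR adjusted p of 0.0264, with 3 counts in each control library. That call was lost without either control library or DEN+CCl4 replicate 2, and by limma on log2(FPKM + 1) and log2(TPM + 1). Proc, protein C, fell by 0.60 (SE 0.17, adjusted p = 0.0441), and Mug1, a murinoglobulin protease inhibitor with close copies, fell by 0.81 (SE 0.24, adjusted p = 0.0472). Both of these calls were lost without any single library of the 8, on FPKM and TPM values, with an FPKM of at least 5 and with only the 2 groups compared. The list's count of 4 was 0 without either control library, 1 without DEN+CCl4 replicate 2 and 2 without any 1 of the 4 DWYG libraries. Serpinc1, antithrombin, gave −0.32 (adjusted p = 0.332).

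Of 13 genes of the plasminogen system, which dissolves fibrin, 5 rose and 0 fell, with a median of 0.76. Plat, tissue plasminogen activator, rose by 4.97 (SE 0.30, edgeR adjusted p = 3.6e-04), to 7.20 ± 0.608 FPKM in DEN+CCl4, against 0.195 ± 0.0495 in control. Anxa2, an annexin that binds plasminogen with its partner S100a10, rose by 3.62 (SE 0.48), and S100a10 by 0.90 (SE 0.15). These 3 calls held under each of the 18 alternatives run.

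Of 11 genes that process clotting factors, 3 rose and 2 fell, with a median of 0.20. Vkorc1, the vitamin K reductase blocked by warfarin, fell by 0.72 (SE 0.15, edgeR adjusted p = 0.0147), to 177.5 ± 0.898 FPKM in DEN+CCl4, against 244 ± 8.47 in control. That call was lost without control replicate 2, on TPM values and with only the 2 groups compared. Nqo1, a quinone reductase that can also reduce vitamin K, rose by 2.57 (SE 0.23), a call that held under each of the 18 alternatives. Pcsk5, a proprotein convertase, rose by 0.74 (SE 0.16), and leaving out control replicate 1 or 2 lost the call (highest adjusted p 0.0977), as did FPKM values and only the 2 groups compared. Tpst1, a tyrosine sulfotransferase, fell by 0.59 (SE 0.17, adjusted p = 0.0385), a call lost without any single library except DEN+CCl4 replicate 2, on FPKM values, with an FPKM of at least 5 and with only the 2 groups compared, and turned to 0.00646 on TPM values. The list's count of 5 was 2 and 1 without control replicates 1 and 2, and 3 without either DWYG-H library.

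Acute phase genes were read beside the chains, as was the IL-6 route, which raises fibrinogen in inflammation. Of 20 acute phase protein genes, 16 rose and 2 fell in DEN+CCl4 compared with control, with a median of 1.62, while the 3 fibrinogen genes, which are not on that list, lay between −0.013 and 0.066. Lcn2, which binds iron carriers of bacteria, rose by 8.42 (SE 0.57, edgeR adjusted p = 3.9e-04), Apcs, serum amyloid P, by 2.27 (SE 0.27), Serpina3n, a protease inhibitor, by 1.80 (SE 0.30), and Orm2, an orosomucoid with close copies, by 4.42 (SE 0.75). The 2 DEN+CCl4 livers differed widely in Orm2 (456 ± 462 FPKM, against 16.9 ± 7.55 in control). The call of Orm2 was lost without control replicate 2 (adjusted p = 0.0615). The count of 18 called genes was 4 without control replicate 1 and 3 without control replicate 2.

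Of 13 tested genes of the IL-6 receptor family and STAT3 signalling, 2 rose and 1 fell, with a median of 0.10. Osmr, the oncostatin M receptor, rose by 2.54 (SE 0.18), to 4.37 ± 0.00707 FPKM in DEN+CCl4, against 0.620 ± 0.0707 in control, and Lifr, the leukaemia inhibitory factor receptor, fell by 1.54 (SE 0.16). Lifr held under each of the 18 alternatives and Osmr under the 17 that tested it. Stat3, the factor that carries the IL-6 signal, rose by 0.55 (SE 0.14, edgeR adjusted p = 0.0283), a call lost without any single library except DEN+CCl4 replicate 1, with no filter and with only the 2 groups compared (adjusted p up to 0.154). Il6ra, the IL-6 receptor, gave −0.063 (adjusted p = 0.939), and Il6 itself was listed between 0 and 0.14 FPKM and was not tested.

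Of 19 tested transcription factors of the liver that act on clotting genes, 0 rose and 4 fell, with a median of −0.41. Hlf, a circadian PAR bZIP factor, fell by 1.31 (SE 0.26, edgeR adjusted p = 0.0111), Foxa1, a forkhead factor, by 0.65 (SE 0.16), Cebpa, the C/EBP alpha gene, by 1.09 (SE 0.30) and Nr1i3, the xenobiotic receptor CAR, by 1.42 (SE 0.40). Nr1i3 differed widely between the DEN+CCl4 livers (23.4 ± 17.7 FPKM, against 50.7 ± 1.46 in control). The call of Hlf was lost without control replicate 2 or DEN+CCl4 replicate 2, and those of Foxa1 and Cebpa without any 1 of the 4 control and DEN+CCl4 libraries. The call of Cebpa was also lost without either DWYG-H library, and that of Nr1i3 without either control library or any DWYG library. Each of the 4 was lost on TPM values, and those of Foxa1, Cebpa and Nr1i3 also on FPKM values. Those of Cebpa and Nr1i3 were lost with an FPKM of at least 5, and those of Foxa1 and Nr1i3 with only the 2 groups compared. The list's count of 4 was 1 without either control library or DEN+CCl4 replicate 2, and 2 without DEN+CCl4 replicate 1 or either DWYG-H library. Hnf4a, a regulator of many liver-made clotting genes, gave −0.36 (adjusted p = 0.281).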

How the data were processed

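Whole-liver RNA of 8 mice was sequenced (SMART-Seq mRNA LP, per the labels' protocols). The submitters' processing notes name GRCm39; aligner, counter and strand setting: not given in the sources used here. Estimated counts (also called expected counts) were deposited by the authors beside FPKM and TPM values computed by the authors, per the file headers. Between 89.8% and 91.5% of the counts per library were whole within 0.005. The authors' deposited signal (normalized counts) and group means were left out.

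Counts were rounded and tested with edgeR 4.0.16 (quasi-likelihood, TMM) in 1 model of 4 groups, over 11606 genes that reached FPKM 1 in 2 or more libraries. It had 4 residual degrees of freedom and a common dispersion of 0.0377. Standard errors come from the F statistic, intervals are 95%, and TMM-scaled CPM used a prior count of 2. Alternatives were DESeq2 1.42.0, limma 3.58.1 with a pseudocount of 1 or 0.1, RLE size factors, other filters, totals without albumin and major urinary protein genes, a replicate block, the 2 groups alone, and each library left out. The scripts were tested on simulated data. P-values of the main fit rest on the spread between the 2 livers of a group, pooled over the 4 groups and drawn towards that of other genes.

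The members, lists and tests were chosen with earlier results of these data known. Named were all 10 members in DEN+CCl4 compared with control, the 3 with the smallest p elsewhere, up to 4 called genes per related list, and the 5 genes closest in profile. F8, Serpinc1, Il6, Il6ra and Hnf4a were named after their values were seen. Some called genes are not reported here.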

Additional observations from a re-analysis of the deposited data

How the results depend on the processing

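The count of 0 called members held in each of the 6 comparisons under every alternative except limma on TPM values, which called 6 in DEN+CCl4 compared with control, 4 in DWYG-M compared with control and 5 in DWYG-H compared with control; there the median of all genes was shifted by 0.50, 0.40 and 0.41. Leaving out 1 library at a time gave between 0 and 0 in each comparison. With the replicate block 0 members were called in each comparison; same-numbered livers share no stated origin, and the differences between replicates 1 and 2 correlated between groups at −0.14 to 0.26. Of 450 recomputed fold changes of named members, 404 kept direction and side of the threshold, 37 turned sign and 9 others passed newly on TPM values; of those that turned, F7 and F12 in DEN+CCl4 over control also passed on TPM values.

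For DEN+CCl4 over control the turned values on log2(TPM + 1), log2(FPKM + 1) and log2(FPKM + 0.1) were 0.50, 0.18 and 0.18 for F7, 0.35, 0.032 and 0.032 for F9, 0.38, 0.055 and 0.055 for F10, 0.57, 0.25 and 0.25 for F12, and 0.59, 0.26 and 0.26 for Fgg. For F10 in DWYG-M over control they were 0.35, 0.096 and 0.096. With an FPKM of at least 5, F12 was 0.080 and Fgg 0.067; with only the 2 groups compared, 0.013 and 0.00245; with no filter, Fgb was −0.00574. Tpst1 was 0.00646 on TPM values. Leaving out 1 library gave ranges for DEN+CCl4 over control of −0.12 to 0.26 (F2), −0.20 to 0.026 (F7), −0.30 to 0.26 (F12), −0.092 to 0.23 (Fga), −0.18 to 0.25 (Fgb) and −0.17 to 0.11 (Fgg). They were −0.0059 to 0.17 (F5) and −0.16 to 0.38 (F11) for DWYG-H over DWYG-M, and −0.28 to 0.032 (F10) for DWYG-M over control. The cause of these turns was not tested. With all genes, limma gave 5448 calls on TPM (97.5% higher) in DEN+CCl4 compared with control, 2696 on FPKM (91.6% higher) and edgeR 2582 (68.0% higher), or 1669 with only the 2 groups compared. Calls in the related lists also moved by over 1.5 times, over the 18 alternatives: against 5 as reported, plasminogen genes gave 4 to 12 and clotting factor processing 1 to 8; against 4, inhibitors gave 0 to 8; against 3, IL-6 and STAT3 genes gave 2 to 9. Transcription factors gave 1 to 5 against 4, other clotting factors 1 to 6 against 5, and acute phase proteins 3 to 19 against 18.

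With 2 livers per group, fold changes within the intervals given are not excluded for these genes.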

Other observations

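Some genes of the plasminogen system were above control under DWYG. Of 13 tested, 3 rose and 0 fell in DWYG-M compared with control and 3 rose and 1 fell in DWYG-H compared with control, by edgeR, where 4.35% and 6.59% of all genes rose. Plat, tissue plasminogen activator, rose by 3.70 (SE 0.30, edgeR adjusted p = 0.00254) in DWYG-M and by 3.51 (SE 0.31, edgeR adjusted p = 0.00218) in DWYG-H. Against DEN+CCl4, Plat gave −1.27 in DWYG-M (SE 0.22, edgeR adjusted p = 0.213) and −1.45 in DWYG-H (SE 0.22, edgeR adjusted p = 0.250), which did not pass. Its levels were 2.89 ± 0.474 FPKM in DWYG-M and 2.54 ± 0.134 in DWYG-H, against 7.20 ± 0.608 in DEN+CCl4 (SD, n = 2).

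Of 19 tested liver transcription factors of clotting genes, 0 rose and 1 fell in DWYG-M compared with control, and 1 rose and 1 fell in DWYG-H compared with control, where 0.603% and 1.09% of all genes fell by edgeR. Foxa1, a forkhead transcription factor of liver, fell by 0.88 (SE 0.16, edgeR adjusted p = 0.0233) in DWYG-M and by 0.85 (SE 0.16, edgeR adjusted p = 0.0195) in DWYG-H compared with control. Esr1, the oestrogen receptor alpha gene, rose by 0.81 (SE 0.18, edgeR adjusted p = 0.0346) in DWYG-H compared with control, and gave 0.46 (SE 0.18, edgeR adjusted p = 0.216) in DWYG-M. These genes were chosen after their values were seen. Both comparisons with control share the control libraries, and fewer genes were called in each when a control library was left out, as given above. Whether the calls of Plat, Foxa1 and Esr1 in these comparisons held under the alternatives is not reported here.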
